A study of Mus musculus with 4 samples.

Results

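The genes that encode the enzymes of histone H3 lysine 36 (H3K36) methylation were examined in spermatocytes of a pair of mouse strains, as templates that carry the mark themselves. The 10 genes were taken by name. The 5 writers, which encode methyltransferases, were Setd2, Nsd1, Whsc1, Whsc1l1 and Ash1l, and the 5 erasers, which encode demethylases, were Kdm2a, Kdm2b, Kdm4a, Kdm4b and Kdm4c. All 10 were found among 22367 protein-coding genes of the GENCODE annotation of mouse genome build mm9, outside the mitochondrial genome, and all 10 belong to the 9718 that span at least 20 kb.

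H3K36me3 ChIP-seq was performed on germ cells labelled as spermatocytes, from mice at 14 days post-partum (dpp). B6 is the inbred strain C57BL/6J. KI is B6.Cg-Prdm9<tm1.1Kpgn>/Kpgn, a knock-in strain on the B6 background in which the final exon of Prdm9, which encodes the zinc fingers that choose the DNA bound by PRDM9, was replaced by that of CAST/EiJ. Both strains therefore carry a PRDM9 with an intact methyltransferase domain, and by its description KI differs from B6 in that exon alone. The 4 samples are 1 ChIP and 1 input per strain. The inputs are labelled 15 dpp and have no peak list, and the antibody field reads H3K36me6 where the titles read H3K36me3. Chromatin was cut with MNase after formaldehyde fixation of isolated nuclei.

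In each strain the authors pooled 2 biological replicates before calling peaks, so each value below comes from 1 list per strain. Replicate error is therefore not known, no test between the strains was possible, and differences are given as values. The lists hold positions without scores or read counts, so the number of reads behind a region is not known. The study's methods state more aligned reads for KI than for B6, and the part of sequencing depth in the differences between the lists was not tested. Broad regions mark stretches of enrichment, and their edges fall on a grid of 500 bp. After overlapping entries were joined there were 39620 broad regions in B6 and 48863 in KI. Refined peaks are the narrow summits that the caller placed inside broad regions, 58502 in B6 and 72692 in KI. Each of the joined broad regions holds at least 1 refined peak, and 73.0% of them hold exactly 1 in either strain.

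H3K36 is methylated in steps. SETD2 travels with elongating RNA polymerase II and is the main trimethylase of gene bodies, whereas NSD1, WHSC1 (NSD2), WHSC1L1 (NSD3) and ASH1L add the first methyl groups. KDM2A and KDM2B remove the lower methylation states, and KDM4A, KDM4B and KDM4C remove methyl groups from the trimethylated state of H3K36 and also of H3K9. In meiosis PRDM9 adds H3K36me3, together with H3K4me3, beside the sites it binds. Across a transcribed gene H3K36me3 is typically low at the promoter and accumulates towards the 3′ end, but the share of a gene covered by a called region is a length and not a level of expression.

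The labelled cell type was compared with marker genes. All 10 markers of meiotic germ cells, among them Sycp1, Sycp3 and Hormad1, were covered to at least 82.4% of their span in B6 and 77.4% in KI. Of 5 spermatid genes 4 in B6 and 3 in KI lay wholly outside broad regions, while Acrv1 was covered to 100% (B6) and 21.3% (KI) and Prm2 to 0% (B6) and 100% (KI). Prm1, Prm2, Tnp1 and Tnp2 span only 0.561 to 0.817 kb, so the share of each can rest on 1 region. Of 5 genes not used in testis 3 lay outside in each strain. The 5 spermatogonial markers had a median cover of 94.2% in B6 and 89.7% in KI. Of 5 Leydig cell markers 4 in B6 and 3 in KI were at 0, and Star was covered wholly in both. The 6 Sertoli cell markers differed between the lists, with a median cover of 35.9% in B6 (range 3.2% to 71.7%, none at 0) and 2.4% in KI (range 0.0% to 8.5%, 2 at 0). Wt1 was covered to 71.7% and 8.5%, Amh to 42.0% and 0.3%, and Sox9, a defining factor of Sertoli cells, to 45.2% and 0.0%. Amh spans only 2.401 kb, and its cover began at its first base in both lists. In such bulk samples a smaller share of cells of one type cannot be told apart from less mark per cell.

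With the exception of Kdm2b, all of the writer and eraser genes were covered by broad H3K36me3 regions over most of their length in both strains. The writers were covered to a median of 99.2% in both strains, with a range of 94.6% to 100% in B6 and 89.5% to 100% in KI. The erasers were covered to a median of 92.0% in B6 (22.7% to 97.8%) and 88.0% in KI (23.1% to 97.8%). The medians of the groups thus differed by 7.2 percentage points in B6 and 11.2 in KI, and by 4.1 in both when exons alone were counted. The ranges overlapped: Kdm2a and Kdm4a exceeded Whsc1l1 in both strains. Without Kdm2b, a selection made after its value was seen, the median of the erasers was 94.7% in B6 and 92.1% in KI. No test was run, since the genes are not replicates of a group.

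At least 90% of the span was covered in 8 of the 10 genes in B6 and in 6 in KI. The same limit was passed by 26.5% of all protein-coding genes in B6 and by 23.6% in KI, and among those of at least 20 kb by 35.7% and 30.4%. All 5 writers passed it in B6 and 4 in KI, against 3 and 2 of the erasers. Cover of genes of this length lies mostly near either extreme. In B6 their median was 58.3%, with an interquartile range of 3.0% to 95.7%, and in KI it was 48.0%, with 4.5% to 93.6%. Kdm2b was the single member covered to less than 50%, a class that holds 47.4% of the long genes in B6 and 50.6% in KI. Of the 10 genes 6 lay above the upper quartile of long genes in each strain, namely Setd2, Nsd1, Whsc1, Ash1l, Kdm2a and Kdm4a.

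**Figure D1:**
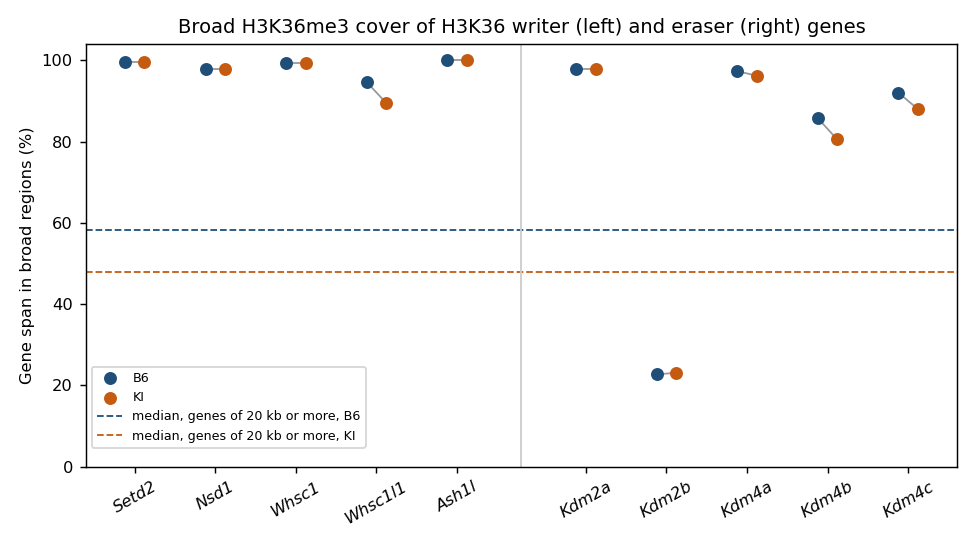
Share of each gene's span that lies in broad H3K36me3 regions (vertical axis, percent) in B6 and KI, with 1 pooled list per point, writers on the left and erasers on the right. Dashed lines are the medians over all protein-coding genes of at least 20 kb, 58.3% in B6 and 48.0% in KI. Kdm2b alone among the 10 lies below them, at 22.7% and 23.1%.

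**Figure D2:**
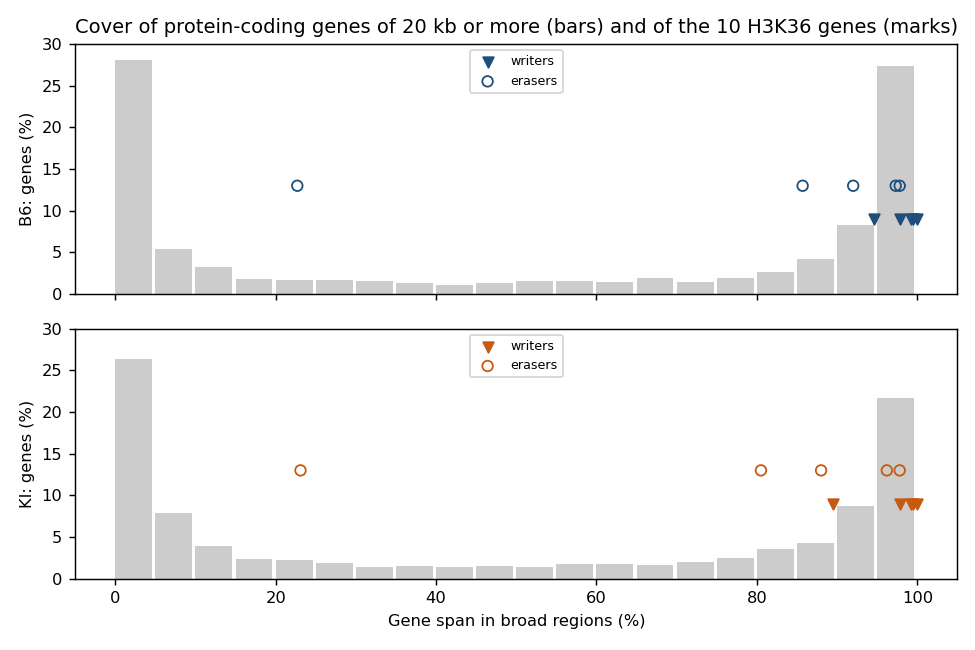
Distribution of the covered share over the 9718 long genes, those of at least 20 kb (grey bars, percent of genes per bin of 5 percentage points) in B6 (top) and KI (bottom), with triangles for the 5 writers and circles for the 5 erasers at arbitrary heights. Most members sit in the upper mode of the distribution, from 80.5% to 100%, and Kdm2b sits between the modes.

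Setd2, the trimethylase gene (chr9:110435101-110521137, plus strand), was covered to 99.5% in both strains by a single region of 90.5 kb. The uncovered part was the first 400 bp of the gene, which include exon 1, and the region ran 4.863 kb past the annotated 3′ end. Of the 10 kb upstream of Setd2 94.0% lay in broad regions in both strains, so the uncovered start lay between covered stretches. The 250 bp upstream of Setd2 hold 31 CpG dinucleotides, and the window is printed to show the CpG-rich sequence that adjoins the uncovered 5′ end. Ash1l (chr3:88769734-88883295, plus strand), a gene of the Trithorax group, was covered to 100% in both strains. It was the single member whose annotated 5′ end was covered. The annotation gives 1 transcript of Ash1l, and whether transcription begins at this start in these cells was not tested. The region over Ash1l began 14.23 kb upstream in B6 and 5.233 kb upstream in KI, within Gon4l, a gene on the same strand that overlaps the first 3170 bp of Ash1l. Reads of the overlapping genes cannot be assigned to either of them. The window before the annotated start of Ash1l holds 2 CpG. Bases are given 5′ to 3′ on the gene's strand from build mm9, with CG dinucleotides in capitals, and CG reads the same on both strands. Over 22362 protein-coding genes the same 250 bp hold a median of 8 CpG (interquartile range 3 to 18), and 92.5% of them hold at least 1.
Setd2, chr9:110434851-110435100: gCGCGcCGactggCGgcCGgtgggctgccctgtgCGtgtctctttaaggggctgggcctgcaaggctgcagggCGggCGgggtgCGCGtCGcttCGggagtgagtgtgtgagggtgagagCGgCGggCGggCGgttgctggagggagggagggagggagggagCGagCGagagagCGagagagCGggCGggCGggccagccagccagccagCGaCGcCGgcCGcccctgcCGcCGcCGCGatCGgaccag
Ash1l, chr3:88769484-88769733: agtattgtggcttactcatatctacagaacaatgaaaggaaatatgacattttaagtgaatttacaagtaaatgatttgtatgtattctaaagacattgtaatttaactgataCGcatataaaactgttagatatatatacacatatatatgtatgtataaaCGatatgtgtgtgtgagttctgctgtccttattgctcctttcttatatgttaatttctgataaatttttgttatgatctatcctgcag

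Among the dimethylase genes, Whsc1 (chr5:34163374-34240624, plus strand), the gene linked to Wolf-Hirschhorn syndrome, was covered to 99.2% in both strains from 0.627 kb onwards. Nsd1 (chr13:55311143-55419686, plus strand), mutated in Sotos syndrome, was covered to 97.8% in both from 2.358 kb onwards. Setd2, Nsd1, Whsc1, Ash1l and the eraser Kdm2a had the same number of uncovered bases in B6 and KI. Whsc1 overlaps the convergent gene Whsc2 by 1040 bp at its 3′ end. The fifth writer, Whsc1l1 (chr8:26712073-26830139, plus strand), was the least covered, with 6428 bp uncovered in B6 (94.6% covered) and 12428 bp in KI (89.5%). Cover began 5.928 kb into the gene in B6 and 5.428 kb in KI. Beyond that point B6 had 1 further uncovered segment, of 0.5 kb, and KI had 2, of 1.5 and 5.5 kb (the longer at chr8:26744501-26750000), all within intron 1, which is 37.84 kb long.

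Among the erasers, Kdm2a (chr19:4316170-4398266, minus strand) was covered to 97.8% in both strains from 1.766 kb onwards. Kdm4a (chr4:117809562-117852648, minus strand) was covered to 97.3% (B6) and 96.2% (KI), a difference of 1 grid step, since 500 bp are 1.16% of this gene, the shortest of the 10. Kdm4b (chr17:56465485-56542293, plus strand) was covered to 85.7% (B6) and 80.5% (KI), and Kdm4c (chr4:73888401-74051764, plus strand), which at 163.4 kb is the longest, to 92.0% and 88.0%. Cover of Kdm4b began 8.016 kb from the start in B6 and 13.52 kb in KI, and cover of Kdm4c began at 12.6 kb and 15.6 kb. At the 5′ edge of both genes B6 thus had a small region that KI lacked. Its refined peak, at 9.159 kb in Kdm4b and 13.66 kb in Kdm4c, lay outside all broad regions of KI. A processed transcript of the opposite strand, A230083N12Rik, lies within the uncovered 5′ part of Kdm4c and was itself at 0.0%. A further coding transcript of 22 exons, Kdm4c-001, starts 9.439 kb into Kdm4c. Cover began 3.161 kb after that start in B6 and 6.161 kb after it in KI.

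**Figure D3:**
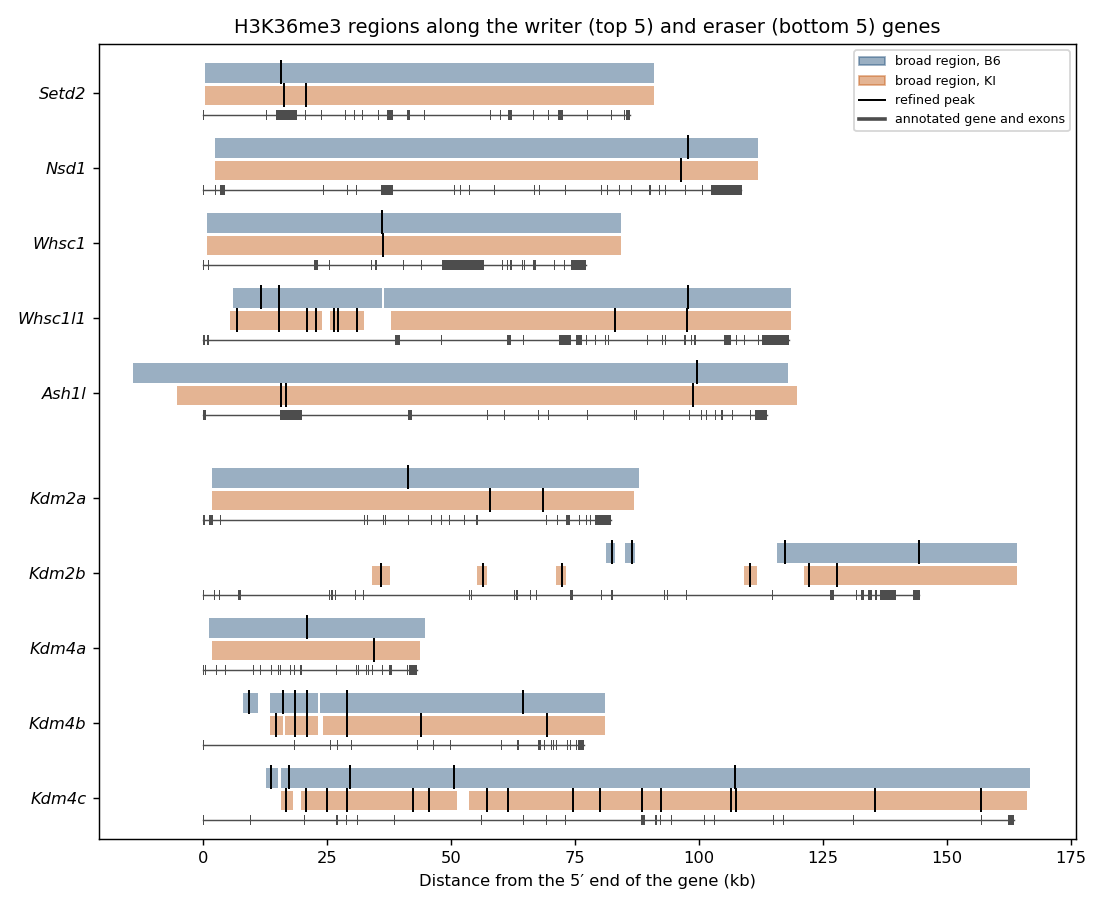
Broad regions (coloured bars) and refined peaks (black lines) of B6 and KI along the 10 genes, with each gene drawn 5′ to 3′ on an axis of distance from its 5′ end in kb and the exons of any annotated transcript in grey below. Uncovered sequence lies at the 5′ end of 9 of the 10 genes, and the coloured bars run past the 3′ end of each.

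Uncovered sequence was not spread evenly along the genes. The 10 kb upstream were covered to 97.7% in Kdm2a and 90.2% in Kdm4b in both strains, and to 0.0% in Nsd1, Kdm4a and Kdm4c. No member had an uncovered 3′ end in either strain, whereas the annotated start lay outside broad regions in 9 of 10, or 8 of the 9 without Kdm2b. With broad regions joined across 1000 bp it lay outside in 8 of 10 in each strain. Both features are common: among protein-coding genes of at least 20 kb that were covered to at least 50%, the start lay outside in 95% in B6 and 95.3% in KI, and, among those of at least 2 exons, the last base was covered in 93.0% and 92.1%. Of 148.4 kb uncovered in B6 over all 10 genes, 113.9 kb (76.8%) lay at the 5′ end, and of 164.9 kb in KI 75.43 kb (45.7%) did. Kdm2b held most of it, with 111589 bp uncovered in B6 and 111089 bp in KI. Over the other 9 genes 36.84 kb were uncovered in B6, with 89.1% at the 5′ end, and 53.84 kb in KI, with 76.8%. The writers had 9.813 kb uncovered in B6 and 15.81 kb in KI, and the erasers 138.6 and 149.1 kb.

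The first covered base lay in intron 1 of the longest coding transcript in 7 of the 9 genes covered to at least 50% in each strain, against 79.9% of long genes of that class in B6 and 80% in KI. It lay in exon 1 in Ash1l and Kdm2a. The median distance from the gene start to the first covered base was 2.062 kb over the 10 genes in both strains. For the writers it was 0.627 kb in both, and for the erasers 8.016 kb in B6 and 13.52 kb in KI. For comparison, long genes covered to at least 50% in both strains had medians of 1.183 kb in B6 and 1.331 kb in KI. Kdm2b is not in that class but enters the medians of the 10 genes and of the erasers. Without Kdm2b the median over the other 9 genes was 1.766 kb in both strains. Cover began at least 5 kb from the start in Kdm2b and, among the 9 members covered to at least 50%, in 3 in each strain, namely Whsc1l1, Kdm4b and Kdm4c, against 10.8% of long genes covered to that extent in B6 and 11.4% in KI. These distances run from the outermost annotated start. From the start of Kdm4c-001 the distance in Kdm4c was 3.161 kb in B6, under the 5 kb limit, and 6.161 kb in KI. The medians of the erasers would be lower with that start. Whsc1l1, Kdm4b and Kdm4c have the longest first introns of the 10 genes, of 37.84, 25.4 and 20.17 kb. Such late cover was more frequent where intron 1 was long: it was seen in 4.7% of genes with a first intron under 5 kb in B6 and in 17.4% of those with one of at least 20 kb, and in KI in 4.3% and 19.2%. Between these classes, with a first intron of 5 to under 20 kb, it was seen in 13.3% in B6 and 14.6% in KI. Setd2 and Ash1l, with first introns of 12.55 and 14.9 kb, belong there, and their cover began within 0.4 kb. The annotated start of Ash1l lies within Gon4l, so the cover there cannot be assigned to Ash1l. The part of intron length in these distances was not tested.

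All coding sequence of the longest coding transcript was covered in 9 of the 10 genes in both strains, the exception being Kdm2b with 69.4% in B6 and 56.6% in KI. Among long genes covered to at least 50%, to which those 9 belong, it was so in 37.7% in B6 and 37.3% in KI. Outside Kdm2b the uncovered segments that lay inside a gene held no exon of that transcript, and they were in intron 1 for 4 of 4 in B6 and 5 of 6 in KI. The exception was a 2.5 kb segment in intron 4 of Kdm4c in KI (chr4:73939501-73942000). In B6 the longest such segment of Kdm4b was 2.5 kb (chr17:56476501-56479000) and in KI it was 1.0 kb (chr17:56488501-56489500), and the one of Kdm4c in B6 was 0.5 kb (chr4:73903501-73904000). Of the 85 annotated transcripts of the 10 genes, 38 start within a broad region in each strain. Most internal starts lie inside genes that were covered over most of their length, and the share over transcripts of other genes was not computed. The outermost annotated start was covered in Ash1l alone.

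The 5′ uncovered segments were dense in CpG in several genes. All of them begin at the gene start by definition. The same stretch was not measured in other genes, so the densities do not show a property of uncovered sequence as such. In Whsc1 the uncovered 627 bp held 145.14 CpG per kb against 7.95 over the whole gene, in Setd2 142.5 against 8.57, in Kdm2a 105.89 against 8.81 and in Nsd1 93.72 against 9.76. The longer uncovered 5′ segments were less dense, with 27.67 per kb in Whsc1l1, 17.71 in Kdm4b and 16.19 in Kdm4c in B6, still above the densities of 11.65, 11.4 and 6.64 over those genes. In Kdm4a it was 33.1 against 19.05, and in Kdm2b, where the segment is longest, 15.71 against 15.64. The 250 bp upstream of the gene held 48 CpG in Whsc1, 35 in Kdm2a, 33 in Kdm2b, 24 in Kdm4b, 16 in Whsc1l1, 12 in Kdm4a, 9 in Nsd1 and 0 in Kdm4c. Kdm4c and Ash1l, the members with the fewest CpG upstream of the outermost annotated start, differed in where cover began. It began at 12.6 kb in B6 in Kdm4c and at the first annotated base in Ash1l, a base that lies within Gon4l. No unknown bases are present in the span of any member.

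At the 3′ end the broad region extended beyond the annotated gene in all 10 genes and both strains. Apart from Kdm2b, the extension was shortest in Whsc1l1, with 0.361 kb, and longest in Whsc1, with 6.876 kb, in B6 and in KI alike. Most of the 10 kb downstream of Whsc1l1 nevertheless lay in broad regions in both strains. The short extension of Whsc1l1 thus ended at a break, with further cover beyond it. Kdm2b stood apart, with 19.68 kb in both strains. Its region continued over Rnf34, a convergent gene that ends 1722 bp away and was covered to 95.7% in both strains. The region over the 3′ part of Kdm2b therefore cannot be assigned to Kdm2b alone. The same limit holds for the extensions of Setd2, Nsd1 and Whsc1. In both strains they ran into the convergent genes Nradd, Rab24 and Whsc2, each covered over most of its length. In KI the region of Ash1l also reached the convergent gene Rusc1.

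Kdm2b (chr5:123320677-123465089, minus strand) encodes a demethylase that binds unmethylated CpG through a zinc finger and recruits a variant Polycomb complex to CpG islands. It was covered to 22.7% (B6) and 23.1% (KI), and most of the cover was at the 3′ end. In B6 a region of 48.5 kb began 115.6 kb into the gene, and in KI a region of 43.0 kb began at 121.1 kb. The annotation gives an internal start near this point: the protein-coding transcript Kdm2b-009 starts 114.7 kb from the 5′ end, in intron 12 of the 22-exon transcript Kdm2b-003, and has 12 exons over 29.69 kb. Kdm2b-009 was covered to 97.1% in B6 from 0.864 kb after its start, and to 78.6% in KI from 6.364 kb after it. Its coding sequence was covered to 97.7% in both strains. The transcript was singled out after its values were seen, and which Kdm2b transcripts these cells make was not measured here. Kdm2b-001, which starts further upstream and spans 118.4 kb, was covered to 27.7% (B6) and 28.1% (KI).

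The sequences before the 2 start sites are printed because the large 3′ region began within intron 12 downstream of the second and far from the first. Both are rich in CpG, with 27 in the window of Kdm2b-001 and 37 in that of Kdm2b-009. Bases are 5′ to 3′ on the minus strand of mm9, with CG in capitals.
Kdm2b-001, chr5:123439109-123439358: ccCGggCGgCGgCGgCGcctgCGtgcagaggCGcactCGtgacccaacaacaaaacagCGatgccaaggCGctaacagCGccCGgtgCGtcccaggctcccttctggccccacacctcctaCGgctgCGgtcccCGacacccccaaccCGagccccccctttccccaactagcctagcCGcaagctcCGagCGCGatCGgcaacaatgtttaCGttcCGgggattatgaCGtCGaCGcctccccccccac
Kdm2b-009, chr5:123350365-123350614: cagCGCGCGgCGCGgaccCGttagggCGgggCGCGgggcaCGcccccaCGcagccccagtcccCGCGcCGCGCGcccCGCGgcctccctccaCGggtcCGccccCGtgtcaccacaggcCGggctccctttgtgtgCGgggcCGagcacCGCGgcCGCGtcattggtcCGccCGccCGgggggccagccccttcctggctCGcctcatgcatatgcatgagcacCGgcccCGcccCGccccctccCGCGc

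Upstream of Kdm2b-009, over 114.7 kb of the gene, 4.0 kb were covered in B6 (3.5%) and 10 kb in KI (8.7%). This cover came as isolated regions, 2 of 2.0 kb each in B6 and 4 of 2.0 to 3.5 kb in KI. None of them was met by a broad region in the other list, and each held exactly 1 refined peak. In B6 they began 81.09 and 85.09 kb from the 5′ end, with a refined peak in exon 11 and in intron 11, and in KI at 34.09, 55.09, 71.09 and 109.1 kb, with peaks in introns 4, 6, 8 and 12. The peak in intron 11 (chr5:123378192-123378987) was the widest refined peak of B6 in the 10 genes, at 796 bp. The covered share of Kdm2b was thus nearly the same in both strains while the bases covered differed. Of the covered bases 87.8% in B6 and 70.0% in KI lay within Kdm2b-009. The first 81.09 kb of the gene in B6 and 34.09 kb in KI (chr5:123384001-123465089 and chr5:123431001-123465089) were uncovered, and the longest uncovered segments inside it were 28.5 kb in B6 (chr5:123349501-123378000) and 36 kb in KI (chr5:123356001-123392000). The long non-coding RNA gene A930024E05Rik starts within the uncovered 5′ segment and was at 0.0% in both strains, and Orai1, which overlaps the start of Kdm2b by 7 bp on the opposite strand, was covered to 13.0% and 19.5%.

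**Figure D4:**
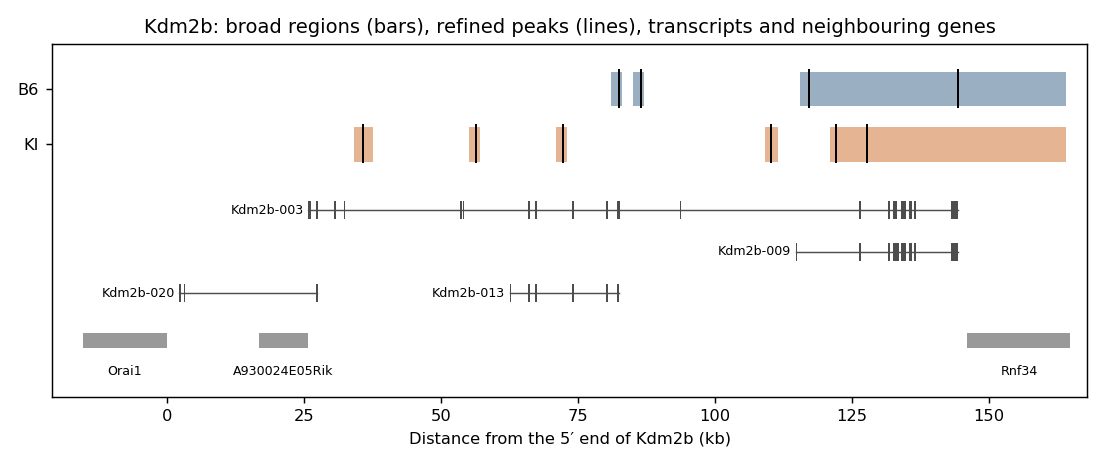
Kdm2b drawn 5′ to 3′, with distance from its 5′ end in kb on the horizontal axis, broad regions (bars) and refined peaks (black lines) of B6 and KI on top, 4 of its transcripts below and neighbouring genes as grey bars. The large region of either strain lies over the 3′ part that holds Kdm2b-009 and runs on over Rnf34, and the small upstream regions of B6 and KI stand at different positions.

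Between the strains, the covered share was lower in KI by more than 1 percentage point in 4 of the 10 genes: by 5.1 points in Whsc1l1, 1.1 in Kdm4a, 5.2 in Kdm4b and 4.0 in Kdm4c. It was not higher by more than 1 point in any, and Kdm2b was 0.4 points higher. Among long genes covered to at least 50% in both strains, KI was lower by more than 1 point in 52.6% and higher in 11.1%, so a lower share in 4 of the 9 members of that class was near the background. Over the 9 genes other than Kdm2b, 95.8% of all bases were covered in B6 and 93.8% in KI. Of the 6 Sertoli cell markers 5 were lower in KI as well, while Fshr was covered to 3.2% (B6) and 4.5% (KI). The spermatogonial markers Zbtb16, with 69.1% in B6 and 37.2% in KI, and Kit, with 87.7% and 72.4%, were also lower. The part of these markers in the differences between the strains was not tested.

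Refined peaks were more numerous in KI. There were 24 in the 10 genes in B6 and 47 in KI, or 2.37 and 4.64 per 100 kb. The KI to B6 ratio was 1.96, compared with 1.24 for the lists as a whole, 1.21 for protein-coding genes of at least 20 kb and 1.54 for those covered to at least 50% in both strains, the class to which 9 of the 10 genes belong. The ratio was 1.63 without Kdm4c and 1.38 without Kdm4c and Whsc1l1, genes left out after their values were seen. KI had more peaks than B6 in 6 genes, equal numbers in 4 and fewer in none. Among the long genes covered to at least 50% in both strains 54.9% had more peaks in KI. Of the excess of 23 peaks, 11 were in Kdm4c, which had 5 in B6 and 16 in KI, and 6 were in Whsc1l1, which had 3 and 9. In KI 7 of the 9 Whsc1l1 peaks lay in intron 1, the same intron in which KI had its uncovered segments. Setd2 had 1 and 2 peaks, Kdm2a 1 and 2, Ash1l 1 and 3, and Kdm2b 4 and 6. Nsd1, Whsc1 and Kdm4a had 1 in each strain, and Kdm4b had 6 in each.

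Writers held fewer refined peaks per length than erasers in both strains, 1.39 per 100 kb in B6 and 3.18 in KI against 3.33 and 6.08. Whsc1l1 and Kdm4c carried much of the KI values, with 7.62 and 9.79 per 100 kb, and Kdm4b was the highest in B6, with 7.81. The median density over long genes covered to at least 50% in both strains was 4.09 per 100 kb in B6 and 6.63 in KI. Of the 10 genes 9 lay below it in B6 and 7 in KI. Kdm2b is counted here although it is not in that class. The class was not matched to the members for length, and the density of a gene with 1 peak falls with its length. The counts therefore do not show that the members are poor in refined peaks.

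**Figure D5:**
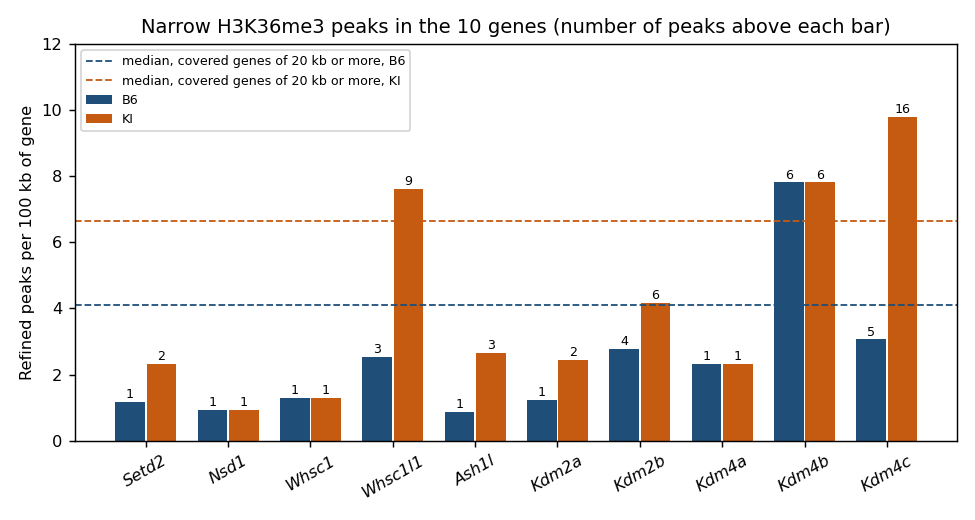
Refined H3K36me3 peaks per 100 kb of gene (bars, vertical axis) in B6 and KI, with the number of peaks above each bar and the median over protein-coding genes of at least 20 kb covered to at least 50% in both strains as dashed lines (4.09 in B6, 6.63 in KI). Kdm4b exceeds the line in both strains, and Whsc1l1 and Kdm4c exceed it in KI.

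Of the refined peaks, 7 overlapped a peak of the other strain by at least 1 bp, which is 29.2% of the 24 in B6 (exact 95% interval 12.6% to 51.1%) and 14.9% of the 47 in KI (6.2% to 28.3%). These intervals cover counting error over peaks only. The background over all peaks in protein-coding genes was 19.0% in B6 and 15.9% in KI, so the members were not set apart from other genes at this number of peaks. The shared peaks were in Kdm4b (3), Whsc1l1 (2), Whsc1 (1) and Kdm4c (1), and the other 6 genes had none. Of the 17 B6 peaks without a counterpart 5 lay outside the broad regions of KI, and of the 40 KI peaks without one 4 lay outside those of B6. All 7 B6 and 16 KI peaks of the writers lay in a broad region of the other strain. The exceptions were 3 peaks in Kdm2b, 1 in Kdm4b and 1 in Kdm4c in B6, and 4 in Kdm2b in KI. Over all peaks without a counterpart in protein-coding genes, 46.2% lay outside the broad regions of the other strain in B6 and 22.8% in KI. Peaks in poorly covered genes enter these shares, whereas 9 of the 10 genes are well covered in both strains.

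The sequences of shared peaks are printed for 1 peak in each of the 4 genes, as the narrow positions in these genes that both lists contain. Each is the shorter peak of the pair, 5′ to 3′ on the plus strand of mm9, which is the gene's strand, with the bases that lie in the peaks of both strains in capitals. The overlap was 232 bp in Whsc1 (intron 6), 283 bp in Whsc1l1 (intron 17), 276 bp in Kdm4b (intron 1) and 141 bp in Kdm4c (intron 15). GC content was 39.2%, 46.3%, 48.3% and 37.5%, and the number of CpG 0, 3, 1 and 2, in that order.
Whsc1, B6, chr5:34199369-34199608: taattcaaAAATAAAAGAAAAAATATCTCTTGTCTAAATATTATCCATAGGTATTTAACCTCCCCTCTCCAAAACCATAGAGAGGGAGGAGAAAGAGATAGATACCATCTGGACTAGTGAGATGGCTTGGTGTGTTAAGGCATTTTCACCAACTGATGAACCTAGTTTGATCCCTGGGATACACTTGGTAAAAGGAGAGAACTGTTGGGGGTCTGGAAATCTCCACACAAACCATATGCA
Whsc1l1, B6, chr8:26809554-26809836: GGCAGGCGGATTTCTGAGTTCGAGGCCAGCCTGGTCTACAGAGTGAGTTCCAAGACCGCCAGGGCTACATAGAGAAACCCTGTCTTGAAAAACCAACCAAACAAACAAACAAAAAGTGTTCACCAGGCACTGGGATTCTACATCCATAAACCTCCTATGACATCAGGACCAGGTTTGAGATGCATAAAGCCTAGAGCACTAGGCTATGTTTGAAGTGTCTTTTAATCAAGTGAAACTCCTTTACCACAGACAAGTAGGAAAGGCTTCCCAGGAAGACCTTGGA
Kdm4b, B6, chr17:56483905-56484196: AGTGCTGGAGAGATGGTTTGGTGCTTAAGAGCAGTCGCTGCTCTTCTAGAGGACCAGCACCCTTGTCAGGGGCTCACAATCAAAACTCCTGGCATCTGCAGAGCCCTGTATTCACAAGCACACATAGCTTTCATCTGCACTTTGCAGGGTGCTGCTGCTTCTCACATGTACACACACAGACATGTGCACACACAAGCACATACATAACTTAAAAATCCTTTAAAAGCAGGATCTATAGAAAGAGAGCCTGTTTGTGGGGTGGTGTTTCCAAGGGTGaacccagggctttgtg
Kdm4c, KI, chr4:73995611-73995858: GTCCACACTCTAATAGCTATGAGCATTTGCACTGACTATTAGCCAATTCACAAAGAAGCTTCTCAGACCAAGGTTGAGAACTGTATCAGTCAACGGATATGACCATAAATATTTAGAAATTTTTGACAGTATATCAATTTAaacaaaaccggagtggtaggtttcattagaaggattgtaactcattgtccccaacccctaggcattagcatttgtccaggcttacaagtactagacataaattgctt
The other shared pairs were in intron 1 of Whsc1l1 (overlap chr8:26727103-26727479, 377 bp), intron 1 of Kdm4b (chr17:56486251-56486529, 279 bp) and intron 4 of Kdm4b (chr17:56494334-56494602, 269 bp).

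An exon of any annotated transcript was met by 4 of 24 refined peaks in B6 and 12 of 47 in KI, against 14.7% and 14.3% of peaks in long genes. None lay within 2 kb of the start of a member, where 0.554% of peaks in long genes lay in B6 and 0.717% in KI, and the nearest were at 8826 bp in B6, in Kdm4b, and at 6629 bp in KI, in Whsc1l1. The median width was 317 bp in B6 and 335 bp in KI. The widest in KI was 1275 bp, in intron 5 of Kdm4c (chr4:73945018-73946292). In Setd2, 1 peak of each strain lay in exon 3, 276 bp apart, and in Ash1l the B6 peak in intron 18 lay 194 bp from a wider KI peak.

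Except for Phf19, the other genes listed for H3K36 methylation were covered to more than 50% in both strains. These lists were set by name, and the activity of the products on H3K36 was not examined. Setmar (75.5% in B6, 71.3% in KI), Dnmt3a (75.6%, 67.7%) and Zmynd11 (73.2%, 65.7%) lay below every member but Kdm2b. Prdm9 itself was covered to 96.4% (B6) and 94.0% (KI), with cover from 0.318 and 0.818 kb onwards. Of 4 genes listed as further writers (Prdm9, Smyd2, Setd3 and Setmar) 3 were covered to at least 90% in B6 and 2 in KI. Of Kdm4d and Jmjd5 (Kdm8), listed as further erasers, 1 and 2 were. The 5 partners of SETD2 in transcription, among them the largest RNA polymerase II subunit gene Polr2a and the elongation factor gene Supt6h, were covered to 91.8% to 100% in both strains. Of 14 readers, whose products bind methylated H3K36, 11 passed 90% in each strain. The exception under 50% was Phf19, a Tudor-domain gene of Polycomb repressive complex 2, which lay wholly outside broad regions in both strains.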

How the data were processed

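H3K36me3 ChIP-seq lists of B6 and KI were used as deposited. The authors aligned reads with BWA (1.2.3 in the submitters' processing notes) to mm9, pooled the replicates of each strain and called regions with ZINBA against input. The deposited files give chromosome, start and end only, with no count, signal, ratio or score. Starts and ends were taken as 1-based and inclusive, since the starts of broad regions fall 1 base past multiples of 500.

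Broad regions were merged within a strain. Covered shares were computed over gene spans of GENCODE (mm9) with numpy 2.4.6, pandas 2.3.3 and scipy 1.17.1 in Python 3.11.15, and interval code was tested on simulated data. The gene start is the outermost annotated 5′ base. Introns are those of the longest coding transcript. Intervals are exact binomial. Sequences were read from the mm9 genome. All 10 genes are described, with every shared refined peak, the widest of each strain and each gene's 5′ and longest inner uncovered segment. Genes and lists were chosen with earlier results of these data known. With 1 list per strain no test and no leave-one-out analysis was possible.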

Additional observations from a re-analysis of the deposited data

How the results depend on the processing

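Alternatives used the longest coding transcript, exons only, broad regions of at least 5000 bp or joined across 1000 bp, other limits of cover, the Kdm4 genes alone as erasers, other rules for refined peaks, and, added after the data were seen, the erasers without Kdm2b. Of 68 values over 16 results, 61 stayed within the tolerance and 7 moved past it. Only the differences between writers and erasers could change sign, and 0 did. For a share the tolerance was a Wilson 95% interval over 500 bp steps, for a count 1.5 times and for a length 500 bp. Adjacent steps are not independent, so the tolerance is a convention and not a measure of error. In KI the median of the erasers moved from 88.0% to 94.9% over exons only and to 92.1% without Kdm2b. The difference between writers and erasers in KI moved from 11.2 to 4.1 percentage points over exons only. It was 16.1 with broad regions of at least 5000 bp and 7.1 without Kdm2b, both within the tolerance. In B6 that difference went from 7.2 to 4.1, which stayed within the tolerance. The refined peaks counted as shared rose from 7 to 12 in B6 and 11 in KI when peaks within 500 bp were counted, and to 19 and 43 when broad regions of the other strain were. No paired analysis was possible because each strain has 1 pooled list. The reads behind a single region are not known, and a difference of 500 bp is 1 step of the grid.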
